A study of Mus musculus with 6 samples.

Results

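Gfi1 and Gfi1b encode closely related zinc finger repressors of blood cells, and 4 further genes encode the core of the corepressor that they recruit. These are Kdm1a (the lysine demethylase LSD1), Rcor1 (the scaffold CoREST), Hdac1 and Hdac2 (histone deacetylases). The 6 genes were taken by symbol from the 47517 symbols of the deposited tables, and their mRNA was compared between blood-forming cells of 2 embryonic sites. GFI1 and GFI1B bind DNA through their zinc fingers and hold LSD1 through a short amino-terminal segment called the SNAG domain. CoREST links LSD1 to the deacetylases, so that methyl marks and acetyl marks are removed from the histones of the same gene. In the embryo this machinery is known for silencing endothelial genes while blood cells emerge from hemogenic endothelium, and GFI1B is also needed in red cell and platelet formation.

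Cells came from C57BL/6 embryos with a tdTomato reporter knocked into Hlf, at embryonic day 10.5, and every library carries that allele. The sort took cells positive for the reporter and c-Kit and negative for CD45, either from embryo tissue labelled as caudal-half (caudal cells, 3 libraries) or from the yolk sac (3 libraries). Both tissues were digested with 0.125% collagenase for 1 h at 37 °C, and each library held 100 cells. Nothing in the labels says that replicates came from separate embryos, so the p-values reflect only the spread between these libraries, and that spread may be technical.

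Levels are given in TPM (an abundance scaled to the library's total), which are also scaled for transcript length, so genes can be compared within a library. The read depth is unknown, because TPM keeps none. Over the libraries, 15644 to 16975 genes reached 1 TPM. The sorting genes Hlf, Kit and Ptprc (which encodes CD45) were detected in all 6 libraries. Hlf (27.0 to 44.5 TPM in caudal and 8.95 to 17.6 TPM in yolk sac libraries, limma adjusted p = 0.193) and Kit (105.4 to 158.8 and 42.2 to 98.9 TPM, limma adjusted p = 0.542) did not overlap between tissues, with the caudal libraries above, and neither passed. Yolk sac replicate 2 stood apart. The summed level of 18 yolk sac endoderm markers was 14397.8 TPM there, 842.9 TPM in yolk sac replicate 1, 16.0 TPM in yolk sac replicate 3 and 23.8 to 32.6 TPM in the caudal cells. The 14 red cell markers summed to 1663.1 TPM in yolk sac replicate 2 and to 66.6 to 103.6 TPM in the other libraries. Marker sums of macrophages and granulocytes were 154.5 to 190.5 TPM in the caudal cells and 122.5 to 180.5 TPM in the yolk sac. Of 15 listed, 8 were under 1 TPM in all libraries, among them C1qa, S100a8 and S100a9 at 0. Others were well expressed at both sites. Mpo was at 70.4 to 88.3 TPM in the caudal cells and 31.1 to 77.3 TPM in the yolk sac. Lyz2 was at 36.7 to 44.5 and 21.3 to 42.5 TPM, and Fcgr3 at 16.0 to 17.5 and 12.9 to 38.9 TPM. Of 7 tested markers of that list 1 passed, toward the yolk sac, as did 0.0365% of all tested genes. It was Mrc1, the mannose receptor gene, which was higher in the yolk sac (2.53 to 3.12 TPM) than in the caudal cells (0.124 to 0.242 TPM, log2 difference -1.70, limma adjusted p = 0.0192). Mrc1 reached 1 TPM, the level needed for testing, only in the yolk sac, so its inclusion depended on the tissue where it is high. Marker sums of mesenchyme were 4.66 to 10.3 TPM in the caudal cells and 4.22 to 6.87 TPM in the yolk sac. In such bulk samples, fewer cells with a transcript and less transcript per cell cannot be told apart.

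The promoter of Gfi1b is shown because it differs from that of its paralog in the number of motif matches described here. The core letters of sites recognised by GFI1 and GFI1B are AATC. Factors of the GATA family bind the letters GATAA. The 250 bases before the Gfi1b start, at chr2:28621983-28622232 on the minus strand (RefSeq, GRCm38.p6), are written with matches to these motifs in capitals, on either strand.
Gfi1b: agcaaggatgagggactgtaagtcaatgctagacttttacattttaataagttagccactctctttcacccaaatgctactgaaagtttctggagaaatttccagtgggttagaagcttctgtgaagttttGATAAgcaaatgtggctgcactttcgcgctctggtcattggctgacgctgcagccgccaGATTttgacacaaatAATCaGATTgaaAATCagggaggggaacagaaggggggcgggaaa
The window holds 4 AATC matches, whose first letters lie 60, 45, 40 and 33 bases before the start, and 1 GATAA match 119 bases before it. Of 2 RefSeq windows for Gfi1, the one farther upstream holds 1 AATC match, 200 bases before the start, and the other holds neither motif. These 2 motifs were chosen after the sequences were seen. How often a window holds as many as 4 AATC matches was not counted, so the difference in number is only described. AATC occurs in 73.1% and GATAA in 25.4% of all 32851 RefSeq windows of 300 bases (250 before to 50 after a start), so a match describes letters and not a bound site. A longer GFI1 motif (AATCAC, an extension of the first), a longer GATA motif (AGATAA, an extension of the second) and a RUNX motif (TGTGGT) were also searched on both strands. They were found in 10.4%, 11.2% and 16.8% of the windows. None of these is in the Gfi1 or Gfi1b windows, and among the windows of Kdm1a, Rcor1 and Hdac2 the single match was the RUNX motif in that of Hdac2.

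Gfi1 was the member that passed the test between the tissues, and it was higher in the caudal cells. It was at 29.4, 21.5 and 18.5 TPM in caudal replicates 1, 2 and 3 and at 2.24, 0.88 and 2.33 TPM in the yolk sac replicates. The groups did not overlap, and the lowest caudal library stood 7.94 times above the highest yolk sac library. Means were 23.1 TPM ± 5.63 (SD, n = 3) and 1.82 TPM ± 0.811 (SD, n = 3), a ratio of 12.7. On the log2(TPM + 1) scale, which understates the change of low genes, the difference was 3.12 (SE 0.30, 95% interval 2.43 to 3.81), equal to 8.69-fold, with a limma adjusted p of 0.0114. An exact two-sided permutation test gave p = 0.1, the smallest that 3 against 3 libraries allow. Of 16436 genes tested, 0.383% passed (0.347% higher in the caudal cells and 0.0365% higher in the yolk sac). Values did not overlap between tissues for 15.6% of genes (11.5% and 4.14% in these directions), and the difference of Gfi1 was the 11th largest in size. Seen within a library, Gfi1 lay above 75.1% to 80.3% of tested genes in the caudal cells and above 8.4% to 23.6% in the yolk sac.

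The call of Gfi1 was lost when caudal replicate 1 (limma adjusted p = 0.0675) or caudal replicate 3 (0.055) was left out, and kept without each other single library. When yolk sac replicate 2 was left out, the library richest in endoderm and red cell transcripts, the log2 difference was 2.85 (limma adjusted p = 0.0103). Without yolk sac replicates 1 and 2 together, the libraries with raised endoderm markers, it was 2.83 and did not pass (0.0507), where the lone yolk sac library is assumed to vary like the others. Nor did Gfi1 pass with no filter on low genes (0.195). Yolk sac replicate 3 had Gfi1 at 2.33 TPM and an endoderm marker sum below that of every caudal library. The order of these sums followed 1 marker, Trf, at 10.2 TPM in yolk sac replicate 3 and 19.7 to 30.1 TPM in the caudal cells. Afp, Apob and Ttr lay the other way, though all under 1 TPM. They were at 0.934, 0.304 and 0.319 TPM in yolk sac replicate 3 and at most 0.0544, 0.0394 and 0.0562 TPM in the caudal cells. Apoa2 (0.545 TPM) and Apom (0.413 TPM) of that replicate lay within the caudal range. The cause of the low Gfi1 level in the yolk sac was not tested. Gfi1 lies on chromosome 5 (107716657 to 107726036, minus strand, GRCm38), and its exons overlap those of the antisense transcript A430072P03Rik. That transcript was listed at 1.79% to 6.23% of the Gfi1 level in the same library, and reads of the overlap cannot be told apart because the use of strand is not stated.

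Gfi1b, in contrast to its paralog, was well expressed at both sites. It was at 24.7, 22.7 and 12.2 TPM in the caudal replicates and at 35.4, 14.6 and 30.2 TPM in the yolk sac replicates. The ranges overlapped, with caudal replicate 3 and yolk sac replicate 2 lowest in their groups. Means were 19.9 TPM ± 6.72 (SD, n = 3) and 26.7 TPM ± 10.8 (SD, n = 3). The log2 difference was -0.38 (SE 0.37, limma adjusted p = 0.791), with a 95% interval of -1.24 to 0.48. Leaving out single libraries moved it between -0.75 without yolk sac replicate 2 (limma adjusted p = 0.492) and -0.08 without caudal replicate 3, and it was -0.14 without yolk sac replicate 1. Gfi1b lies on chromosome 2 (28609450 to 28621982, minus strand).

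The balance of the paralogs differed between the 2 sites. Gfi1 made up 54.4%, 48.6% and 60.3% of the summed Gfi1 and Gfi1b TPM in the caudal replicates, and 5.94%, 5.69% and 7.15% in the yolk sac replicates. Yolk sac replicate 2 did not stand apart in this share, although both of its levels were the lowest of the yolk sac. Mean shares were 54.4% ± 5.84 (SD, n = 3) and 6.26% ± 0.779 (SD, n = 3). On the log2(TPM + 1) scale, Gfi1 minus Gfi1b averaged 0.24 ± 0.32 (SD, n = 3) for the caudal libraries and -3.26 ± 0.22 (SD, n = 3) for those of the yolk sac, which is described without a test. The summed level of the pair was 54.0, 44.2 and 30.7 TPM in the caudal replicates and 37.6, 15.5 and 32.6 TPM in the yolk sac, and so it overlapped.

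**Figure D1:**
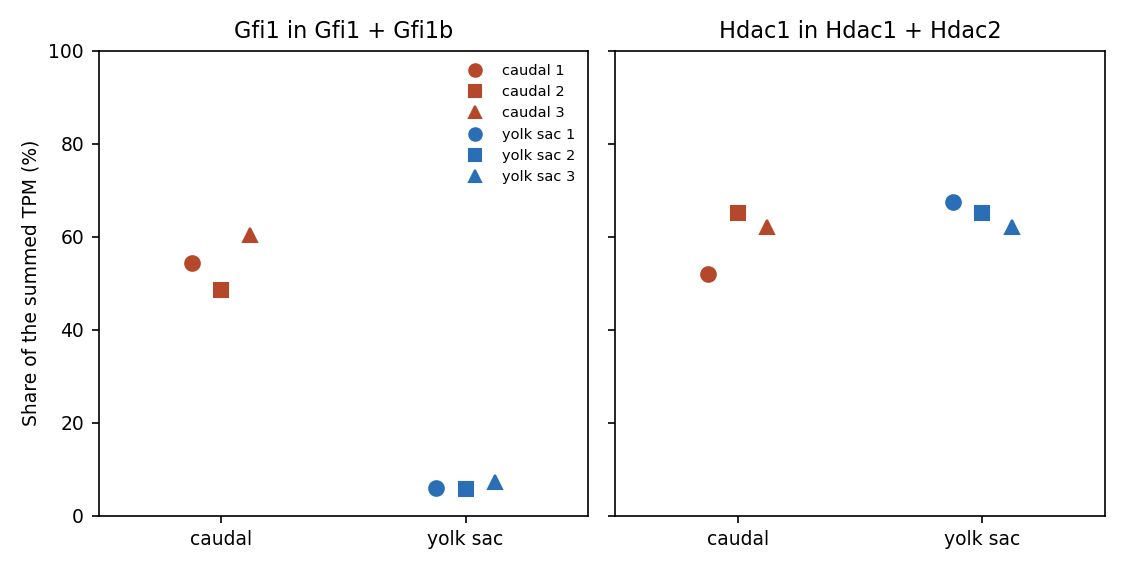
Share of Gfi1 in the summed TPM of Gfi1 and Gfi1b (left) and of Hdac1 in that of Hdac1 and Hdac2 (right), in percent, for each library; colour marks the tissue and shape the replicate. The Gfi1 share is 48.6% to 60.3% in the caudal cells and 5.69% to 7.15% in the yolk sac, while the Hdac1 shares overlap.

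Kdm1a and Rcor1, the demethylase and its scaffold, were abundant at both sites and did not pass the test. Kdm1a was at 83.7, 70.8 and 60.1 TPM in the caudal replicates and at 74.9, 62.6 and 60.7 TPM in the yolk sac replicates. Its ranges overlapped, and it lay above 93.4% to 94.8% of tested genes in every library. The log2 difference was 0.11 (SE 0.18, 95% interval -0.32 to 0.53, limma adjusted p = 0.891). Rcor1 was at 54.5, 37.8 and 51.4 TPM in the caudal replicates and at 40.2, 40.6 and 45.7 TPM in the yolk sac replicates. Caudal replicate 2 was the lowest of all libraries, so the groups overlapped. The log2 difference of Rcor1 was 0.17 (SE 0.19, 95% interval -0.27 to 0.60, limma adjusted p = 0.82). Kdm1a lies on chromosome 4 (136550540 to 136602723) and Rcor1 on chromosome 12 (111039351 to 111115901), where an exon of Gm48632 overlaps it.

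Hdac1 and Hdac2, the deacetylases, did not pass the test either. Hdac1 was at 62.0, 84.8 and 69.9 TPM in the caudal replicates and at 94.0, 65.6 and 69.6 TPM in the yolk sac replicates. The libraries of the tissues were interleaved, with a log2 difference of -0.07 (SE 0.20, 95% interval -0.54 to 0.39, limma adjusted p = 0.937). Hdac2 was at 57.3, 45.4 and 42.8 TPM in the caudal replicates and at 45.4, 35.3 and 42.4 TPM in the yolk sac replicates. Its ranges overlapped, and the log2 difference was 0.23 (SE 0.19, 95% interval -0.20 to 0.66, limma adjusted p = 0.742). Hdac1 made up 51.9% to 65.1% of the summed Hdac1 and Hdac2 TPM in the caudal cells and 62.1% to 67.4% in the yolk sac. Values of Hdac1 are less certain, since a transcript of Gm10093 is 99.4% identical to it over 1444 bases and was listed at 14.7 to 20.7 TPM. With that copy added, Hdac1 ranged from 82.7 to 102.9 TPM in the caudal cells and from 81 to 112.7 TPM in the yolk sac, and its log2 difference was -0.02 (limma adjusted p = 0.98). Hdac1 lies on chromosome 4 (129516104 to 129542713) and Hdac2 on chromosome 10 (36974544 to 37001889).

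**Figure D2:**
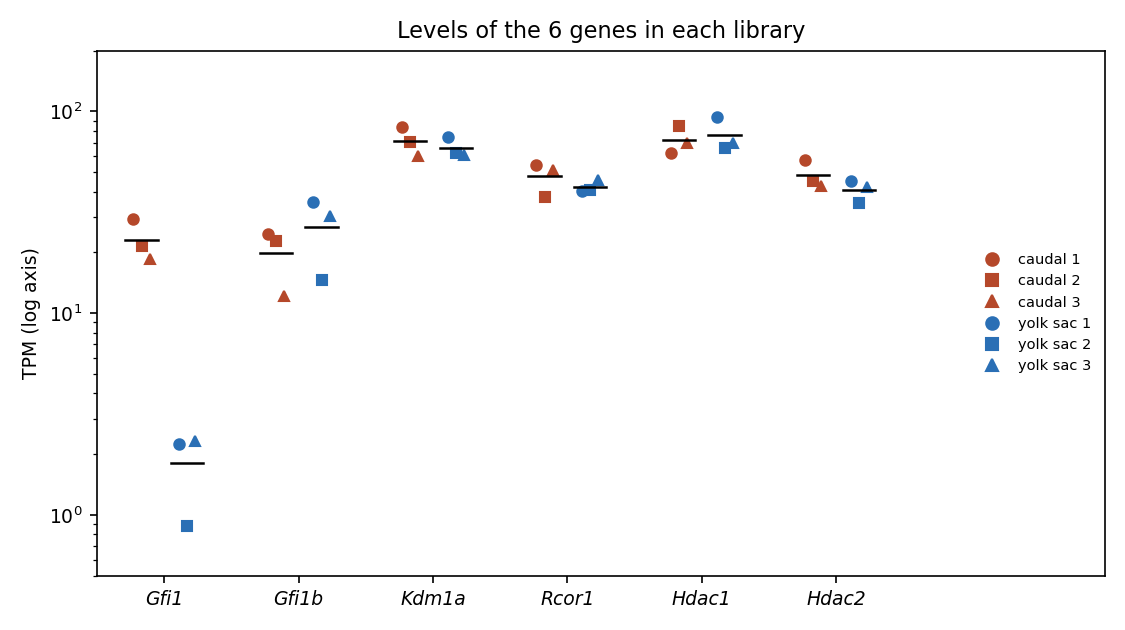
TPM of the 6 genes on a log axis in each library, with the mean of each tissue as a bar; colour marks the tissue and shape the replicate. Gfi1 lies between 18.5 and 29.4 TPM in the caudal cells and between 0.88 and 2.33 TPM in the yolk sac, and the other 5 genes overlap.

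In all, 1 of the 6 genes passed, toward the caudal cells, against 0.347% of tested genes in that direction, and 4 of the 6 differences were positive. Their median difference was 0.14, against 0.09 over all tested genes. The highest library exceeded the lowest 33.4 times for Gfi1 and 2.91 times for Gfi1b, but 1.39 times for Kdm1a, 1.44 times for Rcor1, 1.52 times for Hdac1 and 1.62 times for Hdac2. Larger differences in size than those of Kdm1a, Rcor1, Hdac1 and Hdac2 were found for 74.0%, 61.4%, 82.0% and 49.1% of tested genes. In every library the 4 corepressor genes were more abundant than both repressor genes. Hdac1 was highest and Kdm1a next in 5 of 6 libraries, while caudal replicate 1 had Kdm1a above Hdac1. Whether the difference of Gfi1 exceeded those of the other 5 genes was not tested.

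Further genes listed with the LSD1 and CoREST complex were tested in 13 of 13 cases, and 0 passed limma's test. The list also holds paralogs, which need not join the complex. Differences were positive for 12 of 13, with a median of 0.33, and for 62.0% of all tested genes, with a median of 0.09. Without yolk sac replicate 2 these were 13 of 13 with a median of 0.26, and 8612 of 16436 with a median of 0.02. The values over all tested genes apply to the lists below too. Since 0.383% of all tested genes passed, 0 passing genes in lists of such sizes says little about a list. Rcor3, a paralog of Rcor1, was at 5.69, 5.58 and 8.06 TPM in the caudal replicates and at 2.76, 5.62 and 2.07 TPM in the yolk sac replicates (limma adjusted p = 0.496). Ctbp2, a corepressor that joins the complex, averaged 11.6 TPM ± 0.371 (SD, n = 3) among caudal libraries and 8.04 TPM ± 1.18 (SD, n = 3) among yolk sac libraries, without overlap (log2 difference 0.49, limma adjusted p = 0.505). Zmym2, a zinc finger subunit, also did not overlap, at 19.1 to 25.7 and 13.5 to 17.2 TPM (limma adjusted p = 0.578). Phf21a, whose product reads unmethylated histone H3, was at 3.46 to 14.4 and 2.78 to 6.38 TPM (limma adjusted p = 0.664).

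**Figure D3:**
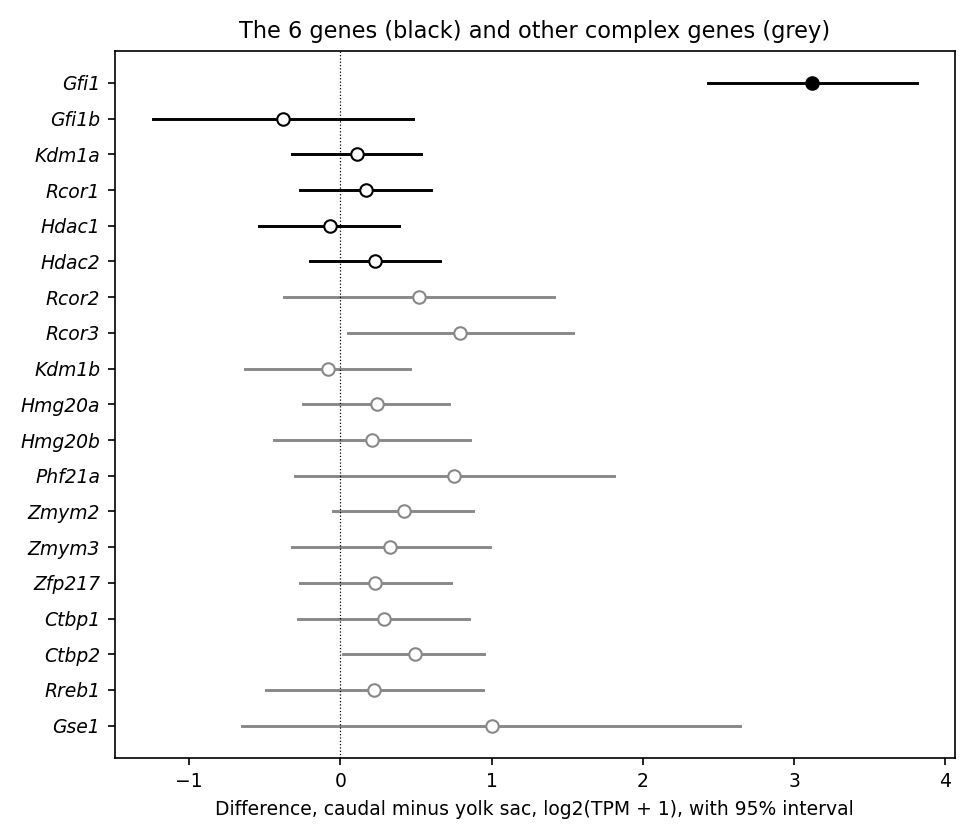
Difference between caudal and yolk sac cells on the log2(TPM + 1) scale with its 95% interval, for the 6 genes (black) and 13 further genes listed with the complex (grey). The filled point passed the test. Gfi1 is at 3.12, and the intervals of Gfi1b, Kdm1a, Rcor1, Hdac1 and Hdac2 include 0.

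Other assemblies that use HDAC1 and HDAC2 also had 0 genes passing limma's test. Of 12 NuRD genes (the chromatin remodelling deacetylase complex), 7 were positive with a median of 0.04. Rbbp7, a histone chaperone subunit, was at 102.5 to 121.9 TPM in the caudal cells and 119.2 to 182.6 TPM in the yolk sac (limma adjusted p = 0.607). Of 11 SIN3 genes, 8 were positive with a median of 0.20. Arid4b, a SIN3 subunit, was at 5.69 to 6.71 against 3.49 to 4.44 TPM without overlap (limma adjusted p = 0.486). Ing2, another SIN3 subunit, lay the other way without overlap, at 5.26 to 5.92 against 6.27 to 8.13 TPM (limma adjusted p = 0.694). Of 7 genes for the remaining class I deacetylases and the NCoR complex, 4 were positive with a median of 0.03. Without yolk sac replicate 2 the medians of these 3 lists were -0.08, 0.08 and -0.01, and 5, 7 and 3 genes were positive.

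Genes of other SNAG-domain repressors were at low levels. Snai3, Insm1, Insm2, Scrt1 and Scrt2 were under 1 TPM in every library, and Snai1 and Snai2 did not exceed 1.27 and 1.44 TPM. Of 11 listed recruiters of LSD1, 4 were tested and 0 passed limma's test, with a median of 0.47, or 0.29 without yolk sac replicate 2. Rest, the repressor of neuronal genes, was at 23.8 to 29.0 TPM in the caudal cells and 19.0 to 20.5 TPM in the yolk sac (adjusted p = 0.589 by limma). Bcl11a, a repressor of fetal globin genes, was at 34.2 to 41.4 and 12.9 to 30.9 TPM (adjusted p = 0.524 by limma). Neither gene overlapped between the tissues.

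Genes for proteins that bind GFI1 included 0 of 12 that passed. Of these 11 were positive, against 62.0% of all tested genes, and the median was 0.17, against 0.09. Without yolk sac replicate 2 the list had 7 positive and a median of 0.09, against 8612 of 16436 tested genes and 0.02. Ehmt1, a histone H3 lysine 9 methyltransferase, was at 48.3, 47.1 and 34.2 TPM in the caudal replicates and at 28.0, 18.0 and 20.4 TPM in the yolk sac replicates, without overlap (log2 difference 0.94, limma adjusted p = 0.19). Pias3, a SUMO ligase, was at 4.02 to 6.52 and 2.54 to 3.93 TPM (limma adjusted p = 0.511).

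Factors known to act upstream of Gfi1 or Gfi1b had positive differences in 14 of 14 cases, against 62.0% of all tested genes. Their median was 0.59, against 0.09, and 0 passed limma's test. Their summed level was 314.4 TPM in yolk sac replicate 2 and 654.5 to 913.7 TPM in the other libraries. Without that replicate 12 were positive, against 8612 of 16436 tested genes, and the median was 0.26, against 0.02. Notch1, a receptor of the arterial and blood-forming programme, was at 31.7, 31.5 and 23.5 TPM in the caudal replicates and at 12.5, 6.56 and 15.4 TPM in the yolk sac replicates. Its groups did not overlap (log2 difference 1.32, limma adjusted p = 0.167). Gata2, a stem cell factor, was at 33.6 to 42.7 and 12.9 to 30.9 TPM (adjusted p = 0.513 by limma), and Spi1, the myeloid factor PU.1, at 43.0 to 52.6 and 16.7 to 41.1 TPM (adjusted p = 0.499 by limma). Runx1, which activates both repressor genes in hemogenic endothelium and was picked after its values were seen, was at 175.7, 124.4 and 114.0 TPM in the caudal replicates and at 130.4, 47.3 and 94.1 TPM in the yolk sac replicates. Those ranges overlapped (log2 difference 0.69, limma adjusted p = 0.589).

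Of 32 genes described elsewhere as blood targets of GFI1 or GFI1B, 27 were tested and 0 passed limma's test. Differences were positive for 20, with a median of 0.28, against 62.0% and 0.09 over all tested genes. Csf1, a macrophage growth factor, was at 11.2, 5.72 and 4.74 TPM in the caudal replicates and at 1.41, 0.551 and 1.16 TPM in the yolk sac replicates (log2 difference 1.96, limma adjusted p = 0.0629). Hoxa9, a stem cell homeobox gene, was at 10.3 to 20.2 and 1.30 to 4.53 TPM (log2 difference 2.06, limma adjusted p = 0.0818). Id3, an inhibitor of helix-loop-helix factors, was at 7.63 to 25.3 and 1.77 to 4.49 TPM (limma adjusted p = 0.168). These 3 genes did not overlap between tissues. Of the 27 tested, 7 lay without overlap above the yolk sac in the caudal cells, against 11.5% of all tested genes. In the other direction 1 lay without overlap, against 4.14% of all tested genes. It was Cdkn1b, a cell cycle inhibitor gene, at 4.40 to 4.97 and 5.52 to 7.28 TPM (limma adjusted p = 0.652). Leaving out yolk sac replicate 2 gave a median of 0.15 over the list, with 19 positive.

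Of 22 endothelial genes tested, 5 rose in the caudal cells, as Gfi1 did, and 17 did not pass, against 0.347% of all tested genes that rose. Differences were positive for 22 of 22 (62.0% of all tested genes), with a median of 1.68, and 20 did not overlap (11.5% of all tested genes in that direction). Flt1 and Egfl7 overlapped between the tissues. The summed level of the 22 genes was 674.5 to 905.9 TPM in the caudal cells and 199.7 to 407.8 TPM in the yolk sac. Without yolk sac replicate 2, 4 passed and the median was 1.21. Cdh5, the gene of VE-cadherin, was at 112.4, 91.0 and 89.3 TPM in the caudal replicates and at 20.9, 10.5 and 18.5 TPM in the yolk sac replicates (log2 difference 2.53, limma adjusted p = 0.0114). Sox7, an endothelial transcription factor gene, was at 8.24 to 15.9 and 0.384 to 1.35 TPM (limma adjusted p = 0.0192). Clec14a, Mmrn2 and Sox18 were the other genes that passed (limma adjusted p = 0.0193, 0.0393 and 0.0482). Among 6 smooth muscle genes, 4 were tested and Acta2 and Myl9 rose, against 0.347% of all tested genes. Myl9, at 5.50 to 12.7 and 0 to 0.402 TPM, reached the level needed for testing only in the caudal cells. Its inclusion thus depended on the tissue where it is high. Tagln did not pass (limma adjusted p = 0.09), and Tpm2 lay the other way with overlap (log2 difference -0.43, limma adjusted p = 0.8). The list summed to 45.2 to 56.3 TPM in the caudal cells and 7.56 to 11.7 TPM in the yolk sac. Acta2 alone was at 26.1 to 36.6 and 1.07 to 2.57 TPM. The part of such transcripts in the result of Gfi1 was not tested.

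**Figure D4:**
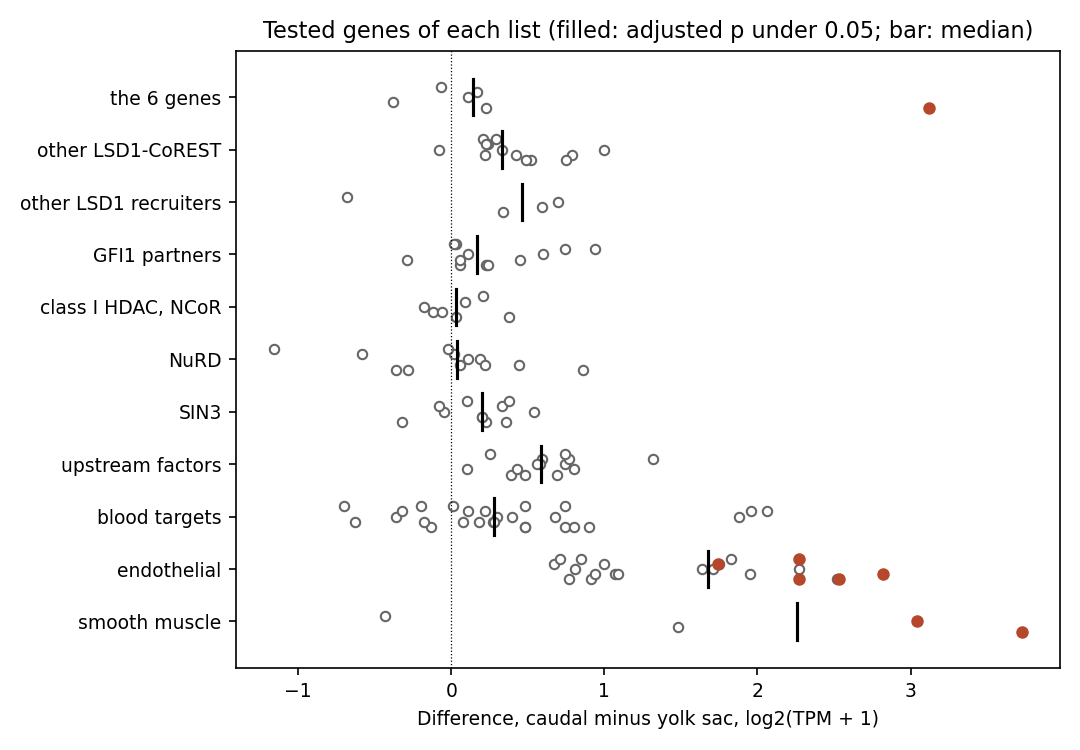
Difference between caudal and yolk sac cells on the log2(TPM + 1) scale for each tested gene of 11 lists; filled points passed the test and bars are list medians. Gfi1 and the passing endothelial and smooth muscle genes lie far to the right, and the medians of the complex lists lie between 0.03 and 0.33.

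Platelet lineage genes are given beside Gfi1b, which is known for its role in that lineage. The 11 megakaryocyte markers summed to 182.5, 165.9 and 141.2 TPM in the caudal replicates and to 254.1, 95.0 and 218.6 TPM in the yolk sac replicates. Yolk sac replicate 2 was lowest in its group for these markers, as it was for Gfi1b, and whether the marker level bears on Gfi1b was not tested. Of 9 tested, 0 passed limma's test with all libraries, and Clec1b, a platelet receptor gene, passed toward the yolk sac without replicate 2 (adjusted p = 0.0218). Clec1b was at 2.78, 1.74 and 1.65 TPM in the caudal replicates and at 16.4, 6.13 and 13.1 TPM in the yolk sac replicates, without overlap. Ppbp, another gene of the list, lay the other way without overlap, at 1.51 to 3.97 and 0.386 to 1.13 TPM (limma adjusted p = 0.431). With all libraries, differences were positive for 4 of the 9 and negative for 5. Over all tested genes, 4.14% lay without overlap toward the yolk sac and 11.5% toward the caudal cells.

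The genes with the pattern most like that of Gfi1 were sought among 7779 protein-coding genes. By Pearson's r of log2(TPM + 1) over 6 libraries they were Mmp2, Cdh5, Serpinf1, Arl4c and Zscan2, with r between 0.995 and 0.997. Mmp2, a matrix protease gene, was at 17.4 TPM on average in the caudal cells and 3.57 TPM in the yolk sac (limma adjusted p = 0.0193). Serpinf1, which encodes a secreted anti-angiogenic factor, was at 27.3 and 8.09 TPM (limma adjusted p = 0.0338). Cdh5 passed too, as given above, while Arl4c (0.23) and Zscan2 (0.0533) did not. Those most like Gfi1b were Bysl, Pwp2, Gmfg, Psmb10 and Il12a, with r between 0.993 and 0.999, and none of the 5 passed limma's test. Bysl and Pwp2, ribosome assembly genes, averaged 21.8 and 13.6 TPM in the caudal cells and 24.3 and 15.4 TPM in the yolk sac. These values of r describe the pattern, with no test, and the 6 points share 2 tissues. Since the genes were picked for their likeness to Gfi1 or Gfi1b, whether they passed largely follows from the choice. It adds nothing to the result of either gene.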

How the data were processed

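RNA-seq libraries of 100 sorted cells were compared, 3 caudal and 3 yolk sac. The authors aligned reads with HISAT2 and quantified them with StringTie on mm10, per the submitters' processing notes. Not given in the sources used here are tool versions, annotation release and strand use. Per the file headers, the deposited values are TPM, handled here as a signal scaled by the authors in each library. Assembled loci summed to 1000000 TPM and annotated genes, on the same scale, to between 555230 and 684549 TPM. Annotated rows were kept, 27 symbols turned into dates were restored by gene ID, and TPM was summed by symbol. TPM keeps no depth, so no counting interval is given.

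Tested genes (16436, with all 6 members) reached 1 TPM in 3 or more libraries. They were compared on log2(TPM + 1) with limma 3.58.1 in R 4.3.3, using a mean-variance trend, two-sided tests and Benjamini-Hochberg adjustment at 0.05. The fit was tested on simulated data. Other pseudocounts (0.1 and 5), filters, scalings and designs, and leaving out libraries, were tried. Coordinates are from GENCODE M21 (GRCm38), in which 47224 of 47643 gene IDs were found. Near-identical transcripts (at least 90% over 300 bases) were sought with blastn.

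The members and lists were chosen with earlier results of these data known. Genes open to naming were the members, list genes that passed or had 1 of the 4 smallest p-values of a list, genes under 1 TPM, and the 5 most similar genes. Runx1, Snai1, Snai2, Clec1b, Cdkn1b, Flt1 and Egfl7, and C1qa, S100a8 and S100a9, fall outside or were singled out after their values were seen. The same holds for Mpo, Lyz2, Fcgr3, Afp, Apob, Ttr, Apoa2 and Apom.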

Additional observations from a re-analysis of the deposited data

How the results depend on the processing

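Gfi1 was higher in the caudal cells under all 19 alternatives and passed limma's test in 14, with adjusted p between 0.000353 and 0.195. Its difference was 3.12 with no filter (adjusted p = 0.195) and 3.12 with the replicate block (0.0631), and 2.83 without yolk sac replicates 1 and 2 together (0.0507), none of which passed. It was between 2.85 and 3.26 without single libraries. With the yolk sac endoderm level as a covariate it was 2.71 (adjusted p = 0.0483). Gfi1b, Kdm1a, Rcor1, Hdac1 and Hdac2 passed in none of their alternatives. Rcor1 was at -0.12 and Hdac1 at 0.12 with array weights (largest, 4.44 and 3.24, for caudal replicate 2 and yolk sac replicate 3), and Hdac1 at 0.04 without yolk sac replicates 1 and 2 together. Without single libraries Gfi1b was between -0.75 and -0.08, Kdm1a between -0.01 and 0.22 and Hdac1 between -0.19 and 0.08. The Gfi1 to Gfi1b difference between tissues, 3.50, was 4.08 with a pseudocount of 0.1, 2.36 with a pseudocount of 5 and 3.79 without mitochondrial, ribosomal protein and globin genes, and between 3.34 and 3.66 without single libraries.

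Over all genes, 57 passed with the higher level in caudal cells and 6 with the higher level in yolk sac cells. These counts were 37 and 2 with a pseudocount of 5, 1 and 0 with no filter, 8 and 0 with a filter on the mean, at 10 TPM, 774 and 182 with array weights, 10 and 0 with the endoderm covariate, and 13 and 0 without yolk sac replicates 1 and 2 together. Without single libraries they were 2 to 55 and 0 to 6. With the replicate number as a block limma gave 0 and 0, with 1611 genes at an unadjusted p under 0.05. Deviations of same-numbered libraries correlated at 0.019, -0.021 and -0.003, and those of other pairs between -0.029 and 0.034. With 3 libraries per tissue, such values cannot show whether same-numbered libraries shared a batch. The cause of these changes was not tested. With unknown depth and 100 cells per library, low levels such as Gfi1 in the yolk sac are imprecise.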
